A study of Mus musculus with 32 samples.

Results

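The distal end of the lower jaw was compared between mouse embryos that had lost Alk5 in the neural crest and their control littermates, at embryonic day 13.5. Alk5 is the protein of the gene Tgfbr1. The comparison took the 4 arrays titled as the Alk5 knockout of the distal mandible and set them against the 4 control arrays of the same region, which makes 8 of the 32 arrays in the series. The other arrays covered the proximal mandible, the distal maxilla and the proximal maxilla, with 4 mutant and 4 control arrays in each region. Both genotypes carried the strain label C57B6. Mutants were offspring of Wnt1cre;Alk5fl/+ and Alk5fl/fl parents and were recognised by a cleft palate and a calvarial defect, which is a visible trait and not a stated genotype test. The controls were littermates for which the labels state no alleles, so whether some carried the Cre transgene or 1 floxed allele is not known. The Cre was driven by Wnt1, so the receptor was targeted in cells with a neural crest history, and the muscle, vessel, blood and epithelial cells of these jaws have other origins. The labels do not say whether the 4 arrays of a group came from separate embryos or from pools. The SE and p-values below pool the spread within all 8 groups of the series. They therefore reflect variation in the other regions as well as in the distal mandible. This variation may include technical variation.

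TGF-beta ligands bind the type II receptor Tgfbr2, which then activates Alk5, and Alk5 phosphorylates Smad2 and Smad3, which enter the nucleus with Smad4 and change transcription. In the embryonic face this signal acts in the neural crest mesenchyme, the tissue that forms the jaw bones, Meckel's cartilage, tendons and most connective tissue. In many cell types it raises genes for collagens, proteoglycans and matrix cross-linking enzymes, and it takes part in growth of the palate and the mandible.

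A level below is the deposited log2 expression value of 1 probe set, and a difference is the mean of the mutant arrays minus the mean of the control arrays, so that 1 unit is a 2-fold change. Values of a group are given for arrays 1 to 4 in that order. A gene was said to have risen or fallen where limma's adjusted p, with the Benjamini-Hochberg adjustment over 13705 genes, was under 0.05. Array medians lay between 7.353 and 7.49. The arrays numbered 1 stood apart in the whole series. Their Cre spike-in signal was 14.01 to 14.19, against 12.94 to 13.63 on the others. This signal was read from the array's P1 cre control probe sets and was not used as a measure of the mouse transgene. Distal mandible control array 3 had a Gapdh signal 2.23 higher at the 3′ end than at the 5′ end, where the other 7 distal mandible arrays lay between -0.18 and 0.08. Xist marked 1 mutant array, number 1, and 1 control array, number 2, as female. The jaw label was borne out by Hand2, a transcription factor of the distal lower jaw, which lay between 13.28 and 13.66 on the 8 distal mandible arrays and between 5.76 and 10.17 on the 16 maxilla arrays. Barx1 had a mean of 12.80 on the proximal mandible controls. It ran from 9.20 to 11.46 on the distal mandible controls and from 10.64 to 11.53 on the distal mandible mutants. Whether the tissue was cut alike for every array was not tested.

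Tgfbr1 itself was not lower in the mutant. Its level was 12.99, 12.92, 12.96 and 12.97 on the mutant arrays, against 12.60, 12.69, 12.67 and 12.76 on the control arrays. Every mutant array was above every control array, and the difference was 0.28 ± 0.07 (SE, n = 4 each, limma adjusted p = 0.0411). The call was a narrow one, since it held in 8 of 25 other settings, and no probe set of Tgfbr1 passed when all 24998 probe sets were tested side by side. All 3 probe sets of the gene were higher in the mutant, by 0.79, 1.39 and 0.28. The position of its probes with respect to the floxed part of the gene is not known here, so Tgfbr1 does not check the genotype labels.

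Among 24 tested ligands, receptors, binding proteins and Smads, Tgfbr1 was the 1 gene that rose and the other 23 did not pass, with a list median of -0.05 against -0.03 over all genes. Tgfbr2, the type II receptor, had 11.37, 11.27, 11.37 and 11.48 on mutant arrays and 12.29, 11.79, 11.51 and 11.67 on control arrays, which did not overlap but did not pass (difference -0.44 ± 0.15, limma adjusted p = 0.143, n = 4 each). The ligand gene Tgfb2 differed by 0.51 (limma adjusted p = 0.118), Smad3 by -0.07 and Smad4 by -0.10. Ltbp3, which binds latent TGF-beta in the matrix, had 10.25, 9.96, 9.99 and 10.04 in mutants and 11.58, 10.62, 11.22 and 10.64 in controls, without overlap and without passing (-0.96 ± 0.29, limma adjusted p = 0.0883). Its relative Ltbp1 also lay lower without overlap (-0.49, limma adjusted p = 0.202). Of 30 genes that TGF-beta induces in many cell types, Lox, Has2 and Lmcd1 fell and the other 27 did not pass, beside 1.43% of all genes that fell, with a median of -0.19. Without control array 1 the median of these 30 was -0.085 and 2 of them fell, and Lmcd1 passed in 3 of the 8 fits that left out 1 array. Not all of the 30 lay lower. Acta2 (1.05), Tpm1 (0.41) and Tagln (0.26) lay higher, with overlap between groups and without passing. Smad7, the inhibitory Smad that the pathway induces as feedback, lay at 10.26, 10.39, 10.16 and 10.23 in mutants and at 10.53, 10.46, 10.87 and 10.50 in controls, without overlap and without passing (limma adjusted p = 0.32).

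Over all genes, 66 rose and 196 fell in the mutant distal mandible, which is 0.482% and 1.43% of those tested, or 262 genes (1.91%) in all. Those shares are the background for every count of list members that rose or fell in this report. In the same fit 2193 of the 13705 genes had an unadjusted limma p under 0.05. That is the background for list counts at this unadjusted level. The median difference was -0.73 among the genes that fell and 0.53 among those that rose. Of the called genes, 69 fell and 14 rose by more than 2-fold. Mutant and control arrays did not overlap for 254 of the 262 called genes, a separation that 590 genes (4.3%) showed upward and 1099 (8.02%) downward over the whole table. For 22 genes that fell, all 4 mutant arrays lay under the level used to filter dim probe sets, 6.66 to 6.86 depending on the array, so their differences are compressed at the low end. The count depended on single arrays: without mutant array 2, 3 or 4 it was 128, 134 or 123, without mutant array 1 it was 172, and without control array 1 or 3 it was 123 or 159. Leaving out control array 1 alone keeps mutant array 1, which bears the same number. Without all arrays numbered 1 the count was 351, of which 180 were among the 262. A fit on only the 8 distal mandible arrays takes no spread from other regions. It called 256 genes, 137 of them among the 262, so passing or not passing can depend on that spread. Of the 262 genes, 88 passed in every fit that left out 1 distal mandible array, and 14 passed in all 25 other settings: Dgkk, Dtx1, Ebf1, Emx2, Gsn, H2az2, Igdcc3, Lrrtm1, Mogat2, Pantr1, Smoc2, Syn3, Syt16 and Tafa5. Of these, Dgkk, Igdcc3 and Mogat2 rose and the others fell. Of the 81 called genes described here by name, 32 lost their call in at least 1 of the 8 fits without 1 array. Those that passed in only 1 of the 8 were Crym, Emx2os, Kera, Ldha, Nfe2 and Tgfbr1, and those that passed in 2 were Cited1, Cntn6, Grik3, Hk2, Igf2bp1, Matn2, Osr1 and Zim1.

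**Figure D1:**
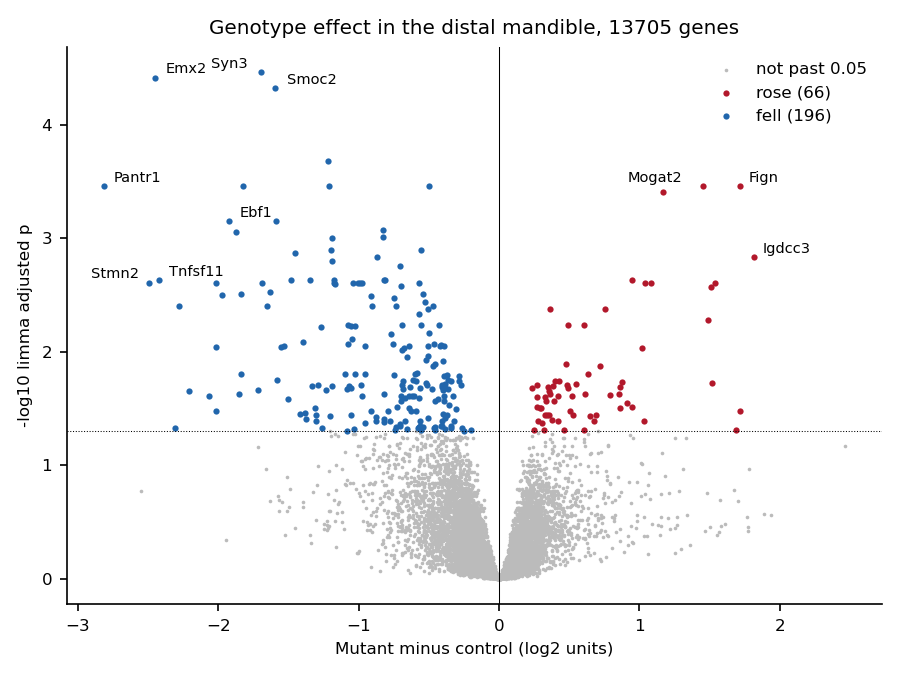
Each point is 1 of the 13705 genes, placed by its mutant minus control difference in the distal mandible (log2 units, x axis) and by -log10 of its limma adjusted p (y axis). Filled points passed 0.05, and the 196 genes that fell reach farther from 0 than the 66 that rose.

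A run of neighbouring genes fell at the Emx2 locus on chromosome 19. Emx2 encodes a homeodomain transcription factor known for its roles in the forebrain, the urogenital system and the limb girdles. Its level was 7.99, 8.50, 8.13 and 8.04 in mutants, against 10.75, 10.42, 10.65 and 10.63 in controls. Every mutant array lay below every control array, and the gene was 5.46-fold lower (difference -2.45 ± 0.29, limma adjusted p = 3.83e-05, n = 4 each). Its neighbours fell with it. Emx2os, the transcript on the opposite strand that starts 55 bases from the start of Emx2, had 7.16, 6.93, 7.26 and 7.04 in mutants and 8.01, 7.81, 8.11 and 7.98 in controls (difference -0.88 ± 0.22, limma adjusted p = 0.0373), a call kept in 1 of the 8 fits without 1 array. Rab11fip2, an effector of the recycling GTPase Rab11, had 10.50, 10.58, 10.45 and 10.56 in mutants and 11.24, 11.02, 10.91 and 11.20 in controls. These groups did not overlap either, and Rab11fip2 fell by 0.57 on the log2 scale (limma adjusted p = 0.00245). E330013P04Rik, a transcript with no named function here, had 7.13, 6.81, 6.48 and 6.62 in mutants and 7.98, 8.03, 7.90 and 7.92 in controls, and fell by 1.20 (limma adjusted p = 0.00128). The 4 genes follow each other along the chromosome with no other tested gene between them. The tested genes on either side did not pass: Pdzd8 differed by 0.19 and Fam204a by -0.12. Emx1, the paralog of Emx2, differed by -0.05.

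**Figure D2:**
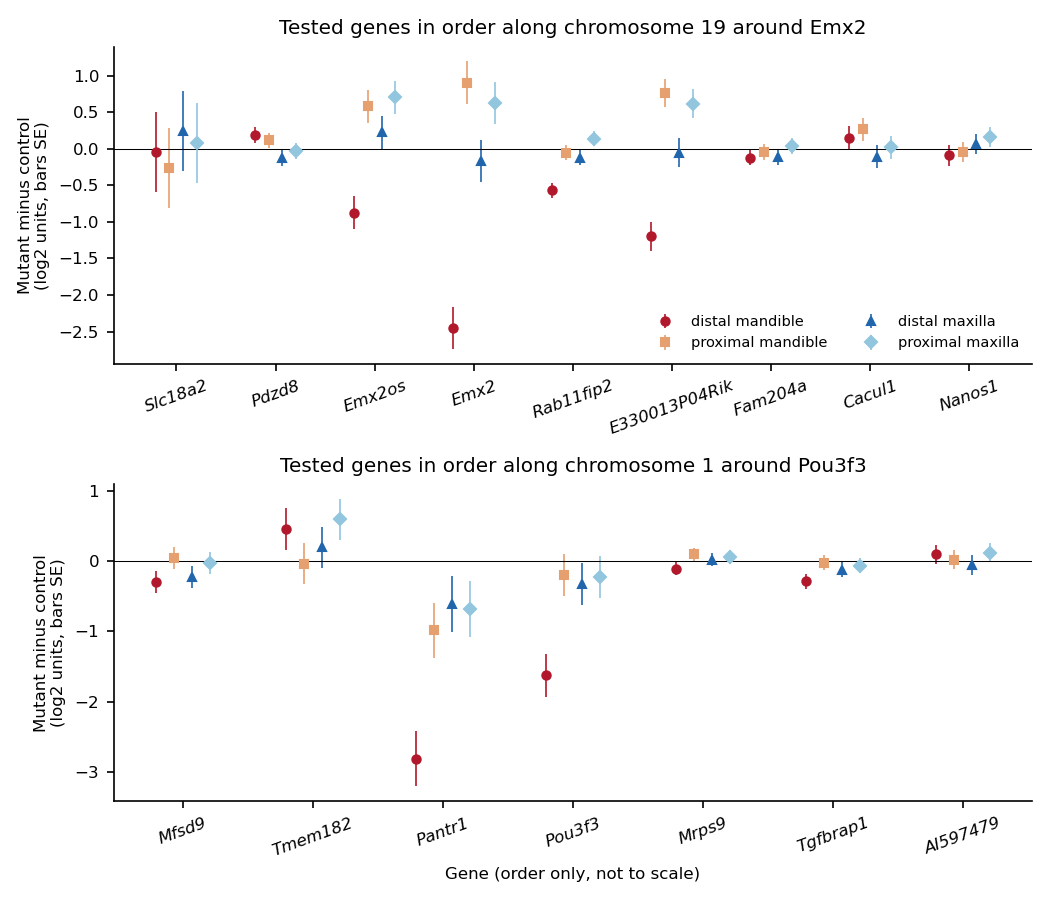
Mutant minus control differences (log2 units, y axis, bars are SE of the limma fit) of the tested genes in their order along the chromosome around Emx2 (upper panel) and Pou3f3 (lower panel), in the distal mandible and in the other 3 regions. Around Emx2 the distal mandible points drop below 0 for 4 genes in a row while those of the other regions stay near or above 0, and around Pou3f3 they drop for Pantr1 and Pou3f3.

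A second pair of neighbours fell on chromosome 1. Pou3f3, a POU-domain transcription factor expressed in the upper part of the facial arches and in the brain and kidney, had 10.32, 10.45, 10.31 and 10.06 in mutants, against 11.82, 11.99, 11.89 and 11.96 in controls. Its control mean was 11.92 in the distal and 11.67 in the proximal mandible, against 11.26 in the distal and 11.37 in the proximal maxilla. Pantr1, a long non-coding RNA transcribed beside Pou3f3, had 8.66, 9.11, 9.08 and 8.72 in mutants, against 11.37, 11.83, 11.99 and 11.64 in controls. Both were well separated, and Pantr1 had the largest fall of all called genes, at 7.04-fold (difference -2.82 ± 0.39, limma adjusted p = 0.000346), while Pou3f3 fell 3.09-fold (-1.63 ± 0.30, limma adjusted p = 0.00299). Mfsd9 and Mrps9, tested genes near this pair, did not pass (-0.30 and -0.11). Among the 262 called genes there were 11 pairs of direct neighbours in the table, 10 of them moving the same way. These pairs included the steps of the run on chromosome 19. They also included Cntn6 with Cntn4 and Ctnna2 with Lrrtm1 on chromosome 6, of which Cntn6, Cntn4 and Lrrtm1 are described below. Beside these pairs, 1.91% of all tested genes were called, and 25.2% of the called genes were higher. The number of pairs that these shares alone would give was not worked out.

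The start regions of 4 genes are shown because Smad3 and Smad4 bind short CAGAC letters. Emx2 and E330013P04Rik stand for the run on chromosome 19, Pou3f3 for the pair on chromosome 1, and Ebf1 is a further transcription factor gene that fell. The sequences are RefSeq promoters in GRCm38.p6, 250 bases before to 50 after the start, 5′ to 3′ on the gene's strand, which is the plus strand in each case. They are Emx2 at chr19:59458440-59458739, E330013P04Rik at chr19:60144425-60144724, Pou3f3 at chr1:42695518-42695817 and Ebf1 at chr11:44617850-44618149. Capitals mark CAGAC or its reverse complement GTCTG.
Emx2: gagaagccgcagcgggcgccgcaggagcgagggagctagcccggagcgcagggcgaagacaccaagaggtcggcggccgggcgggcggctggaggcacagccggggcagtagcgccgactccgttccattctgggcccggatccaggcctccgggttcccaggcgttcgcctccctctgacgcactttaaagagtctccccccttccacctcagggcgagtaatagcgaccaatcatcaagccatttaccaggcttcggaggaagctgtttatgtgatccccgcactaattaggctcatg
E330013P04Rik: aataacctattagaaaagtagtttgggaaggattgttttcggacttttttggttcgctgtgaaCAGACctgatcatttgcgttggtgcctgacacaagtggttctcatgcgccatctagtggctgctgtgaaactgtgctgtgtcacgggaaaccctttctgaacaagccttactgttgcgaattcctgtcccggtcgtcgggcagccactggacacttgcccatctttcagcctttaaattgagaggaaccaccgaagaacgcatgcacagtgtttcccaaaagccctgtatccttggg
Pou3f3: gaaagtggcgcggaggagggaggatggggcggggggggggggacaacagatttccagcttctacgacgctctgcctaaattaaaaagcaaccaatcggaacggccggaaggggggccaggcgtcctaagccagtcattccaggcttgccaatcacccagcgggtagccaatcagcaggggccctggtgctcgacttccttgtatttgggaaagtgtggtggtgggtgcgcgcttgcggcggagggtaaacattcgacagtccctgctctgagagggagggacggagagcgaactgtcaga
Ebf1: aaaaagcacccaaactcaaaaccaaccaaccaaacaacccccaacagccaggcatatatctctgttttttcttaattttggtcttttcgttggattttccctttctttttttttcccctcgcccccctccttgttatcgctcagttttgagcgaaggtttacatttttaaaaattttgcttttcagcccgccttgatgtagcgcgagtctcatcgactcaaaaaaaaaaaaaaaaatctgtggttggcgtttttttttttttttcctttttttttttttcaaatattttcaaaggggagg
The letters occurred 1 time in the E330013P04Rik window and were not in the windows of Emx2, Pou3f3 and Ebf1. On either strand, CAGAC was in 45.7% of the 151 promoters found for genes that fell and in 54.4% of the 57 found for genes that rose, beside 47.7% of the 10987 found for tested genes and 49.7% of all 27025 promoters of this length. The palindrome GTCTAGAC was in 1 of the 151 and in 57 of the 27025. A match describes letters in this window and not a bound site.

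Several other transcription factor genes fell. Ebf1, an early B-cell factor that also acts in adipose tissue and bone marrow stroma, had 8.80, 8.98, 8.66 and 8.35 in mutants, against 11.61, 10.35, 10.14 and 10.38 in controls. All mutant arrays were lower, control array 1 was the highest, and Ebf1 was 3.79-fold lower (-1.92 ± 0.30, limma adjusted p = 0.000699). Its paralogs differed upward without passing, Ebf2 by 0.67 and Ebf3 by 0.57. The T-box factors Tbx15 and Tbx18, which shape the skeleton of the limb girdle and spine, fell by 2.01 and 2.21 on the log2 scale (limma adjusted p = 0.00899 and 0.0222). Tbx18 lay at 9.03, 9.29, 9.09 and 8.26 in mutants and at 11.18, 10.94, 11.04 and 11.34 in controls. Osr1, a zinc-finger factor of the developing mesenchyme of tongue and kidney, had 10.77, 10.49, 10.33 and 10.21 in mutants and 12.56, 11.96, 11.38 and 11.57 in controls. The groups did not overlap for either gene (Osr1 difference -1.42 ± 0.36, limma adjusted p = 0.0355). In all, 3 of 40 tested factors of mandibular patterning fell (Emx2, Pou3f3 and Osr1) and 37 did not pass, beside 1.43% of all genes that fell, with a list median of -0.01. Osr1 passed in 2 of the 8 fits without 1 array. Among those 37, Hand2 differed by -0.02, Msx1 by 0.07 and Prrx1 by -0.01, and these were named for their high mean level. Other jaw patterning genes differed more. Dlx5 lay higher by 0.56 and Msx2 by 0.73, without overlap and without passing (limma adjusted p = 0.41 and 0.692). The mean of Dlx6 was 10.99 in mutants and 10.21 in controls, and that of Pitx1 was 11.95 in mutants and 12.23 in controls. Of 21 forkhead and T-box genes, Tbx15 and Tbx18 fell, beside the same 1.43%, and the other 19 did not pass, with a median of 0.16. That count was 1 without mutant array 3, control array 1 or control array 3. Without mutant array 4 limma passed 0 of the 21, with 4 at an unadjusted p under 0.05.

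The 4 genes of the nuclear factor I family, which promote differentiation in several tissues, all had differences below 0, and 2 of them fell. Nfix had 10.60, 10.54, 10.48 and 10.29 in mutants, against 12.39, 11.51, 11.68 and 11.28 in controls (-1.23 ± 0.29, limma adjusted p = 0.0218). Nfia fell by 0.69 (limma adjusted p = 0.00585), while Nfib (-0.66) and Nfic (-0.53) did not pass. In the proximal mandible, distal maxilla and proximal maxilla, Nfix differed by -1.36, -1.19 and -0.98, and Nfia by -0.56, -0.43 and -0.63. Nfix passed in 3 of the 8 fits without 1 array, and its call was lost without mutant array 2, 3 or 4 or control array 1 or 3. This family was put together after its values had been seen.

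**Figure D3:**
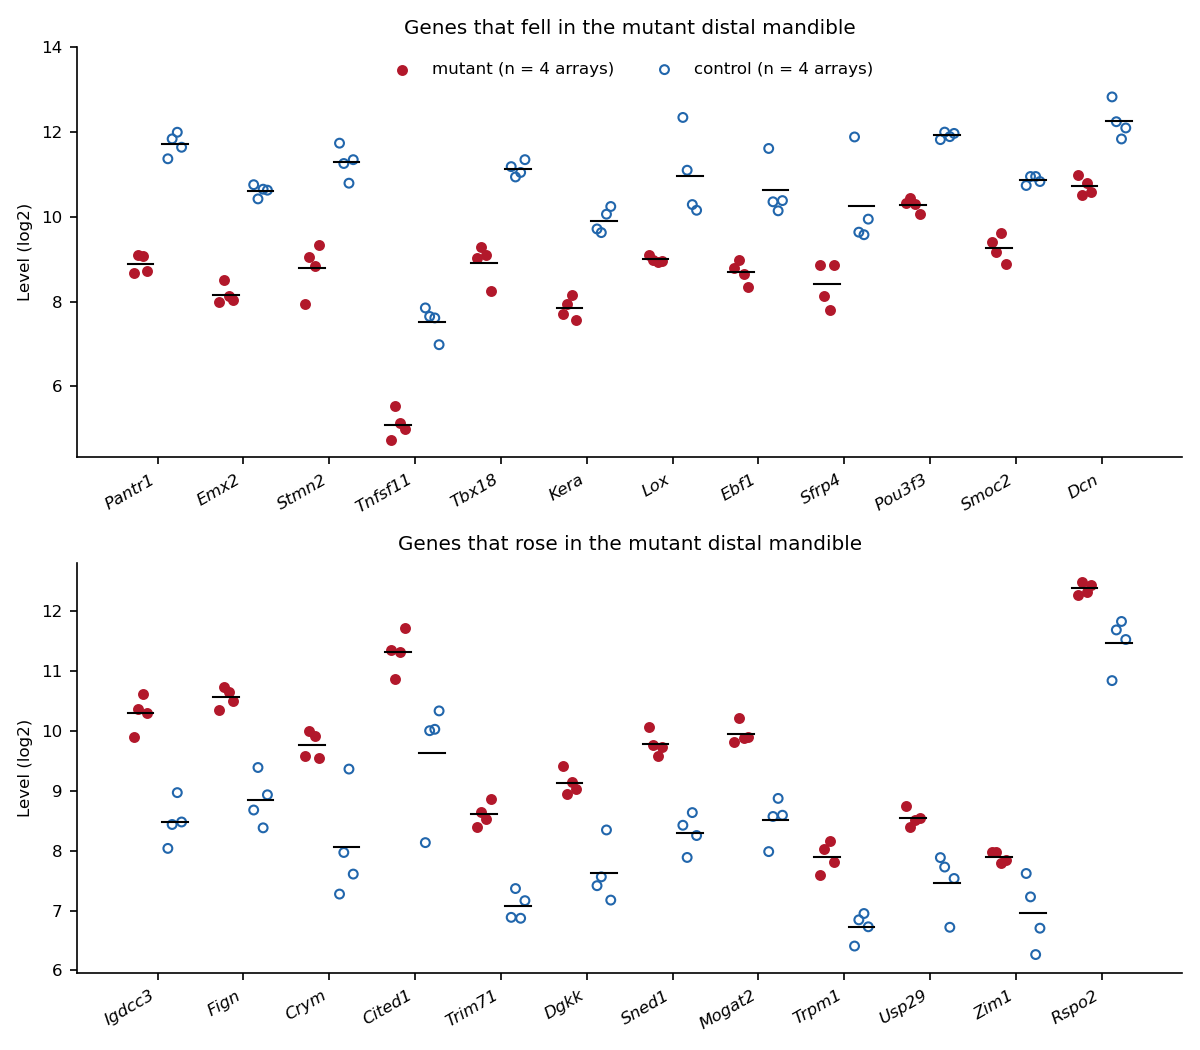
Levels (log2, y axis) on each of the 4 mutant arrays (filled) and, to their right, the 4 control arrays (open) for 12 genes that fell (upper panel) and 12 that rose (lower panel), with horizontal bars at group means. The groups overlap for none of these genes. The control arrays of Lox, Sfrp4, Cited1 and Crym are widely spread, and those of Emx2 and Pou3f3 lie close together.

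Genes of the extracellular matrix were mostly lower, few of them past the test. All 12 tested small leucine-rich proteoglycans, which bind collagen fibrils, had differences below 0 and their median was -0.56. Over all genes the median was -0.03, with quartiles of -0.16 and 0.08. Decorin (Dcn), keratocan (Kera) and osteoglycin (Ogn) fell and the other 9 did not pass, beside 1.43% of all genes that fell. Dcn had 10.98, 10.52, 10.78 and 10.59 in mutants, against 12.82, 12.24, 11.83 and 12.09 in controls, 2.89-fold lower (limma adjusted p = 0.00893). Kera had 7.72, 7.93, 8.15 and 7.57 in mutants, against 9.71, 9.63, 10.06 and 10.24 in controls, 4.19-fold lower (limma adjusted p = 0.0244). Neither gene had an overlap between groups. Dcn lost its call without control array 1, Ogn without that array or mutant array 2 or 4, and Kera without any 1 array other than control array 2. Of 29 collagen chain genes, 28 differed downward, with a median of -0.46. Col8a1, a short-chain collagen of basement membranes and vessels, was the 1 that fell (-1.48 ± 0.26, limma adjusted p = 0.00232), beside 1.43% of all genes. The fibrillar chain genes Col1a1 (-0.76, limma adjusted p = 0.122), Col1a2 (-0.23) and Col3a1 (-0.20) lay lower without overlap between groups and without passing.

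Control array 1 was the highest of the 8 arrays for these lists. The mean level over the 29 collagen genes was 10.69, 10.63, 10.50 and 10.52 in mutants, against 11.62, 10.91, 10.94 and 10.71 in controls. Without that array the collagen median was -0.26 and 1 collagen gene fell. The proteoglycan median was then -0.47, 10 of 12 lay below 0, and limma passed 0 of them, with 4 at an unadjusted p under 0.05. Any fit without control array 1 alone keeps mutant array 1, so number 1 then stands on the mutant side only in the distal mandible. The part of array number in such smaller medians was not tested.

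Enzymes and glycoproteins of the matrix added to this picture. Lox, the enzyme that cross-links collagen and elastin, had 9.10, 8.98, 8.94 and 8.97 in mutants, against 12.34, 11.10, 10.29 and 10.15 in controls. The mutant arrays lay close together while the control arrays were spread, with array 1 the highest, and the difference was -1.97 ± 0.37 (limma adjusted p = 0.00314). Has2, the main hyaluronan synthase of embryonic mesenchyme, fell by 0.69 (limma adjusted p = 0.00959) and Mmp11, a secreted metalloproteinase, by 0.39 (limma adjusted p = 0.0381). These were 3 of 30 genes of matrix processing (beside 1.43% of all genes that fell), whose median was -0.23. Without control array 1 the median was -0.115 and Mmp11 did not pass, nor did it without mutant array 2, 3 or 4. Of 29 microfibril and matricellular genes, 3 fell and 1 rose, beside 1.43% and 0.482% of all genes. Mfap4 among them passed in 5 of the 8 fits without 1 array. Smoc2, a calcium-binding matricellular protein, had 9.40, 9.17, 9.62 and 8.89 in mutants, against 10.74, 10.95, 10.95 and 10.83 in controls (-1.60 ± 0.20, limma adjusted p = 4.78e-05). Efemp1, a fibulin, fell by 1.59 (limma adjusted p = 0.000699) and Mfap4, a microfibril-associated protein, by 0.47 (limma adjusted p = 0.0133). In the proximal mandible, distal maxilla and proximal maxilla, Mfap4 differed by -0.51, -0.42 and -0.45. Smoc2 differed there by -0.56, -1.20 and -0.44, and Efemp1 by 0.25, -0.84 and -0.48. The gene that rose was Sned1, a matrix glycoprotein, with 10.07, 9.77, 9.58 and 9.74 in mutants and 8.43, 7.89, 8.64 and 8.25 in controls (1.49 ± 0.29, limma adjusted p = 0.00526).

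Of the skeletal lists, few genes passed. Tnfsf11 encodes RANKL, the signal by which osteoblast-lineage cells drive osteoclast formation. It had 4.74, 5.54, 5.14 and 4.99 in mutants, all under the level of dim probe sets, against 7.85, 7.65, 7.61 and 6.98 in controls, all above it. The fall was 5.36-fold as measured (-2.42 ± 0.42, limma adjusted p = 0.00232). It was the 1 gene to fall among 18 bone genes, beside 1.43% of all genes. The median of that list was -0.59, or -0.32 without control array 1. Nfatc1 and Itgb3, a transcription factor and an integrin used by osteoclasts, also fell, by 0.62 and 0.77 (limma adjusted p = 0.0244 and 0.00692). With Tnfsf11 they were 3 of 14 genes of the RANKL axis and osteoclasts, beside 1.43% of all genes that fell, and the other 11 did not pass. Nfatc1 passed in 3 of the 8 fits without 1 array, losing its call without mutant array 1, 2 or 4 or control array 2 or 3. Both also act in other cells, Nfatc1 in the heart valves and Itgb3 in platelets. Markers of the osteoclast itself lay closer together, with a mean for Ctsk of 9.54 in mutants and 9.65 in controls, and for Csf1r of 9.80 in mutants and 10.03 in controls. None of them passed. Of 26 genes of Meckel's cartilage, the matrix protein gene Matn2 fell (-1.51 ± 0.37, limma adjusted p = 0.0258) and the median was -0.37. Matn2 lost its call without any 1 mutant array, control array 1 or control array 3, and without control array 1 the median was -0.18. Of 19 tendon genes Kera fell, with a median of -0.46 (-0.33 without control array 1), and Scx, the tendon transcription factor, differed by -0.29 (limma adjusted p = 0.714).

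**Figure D4:**
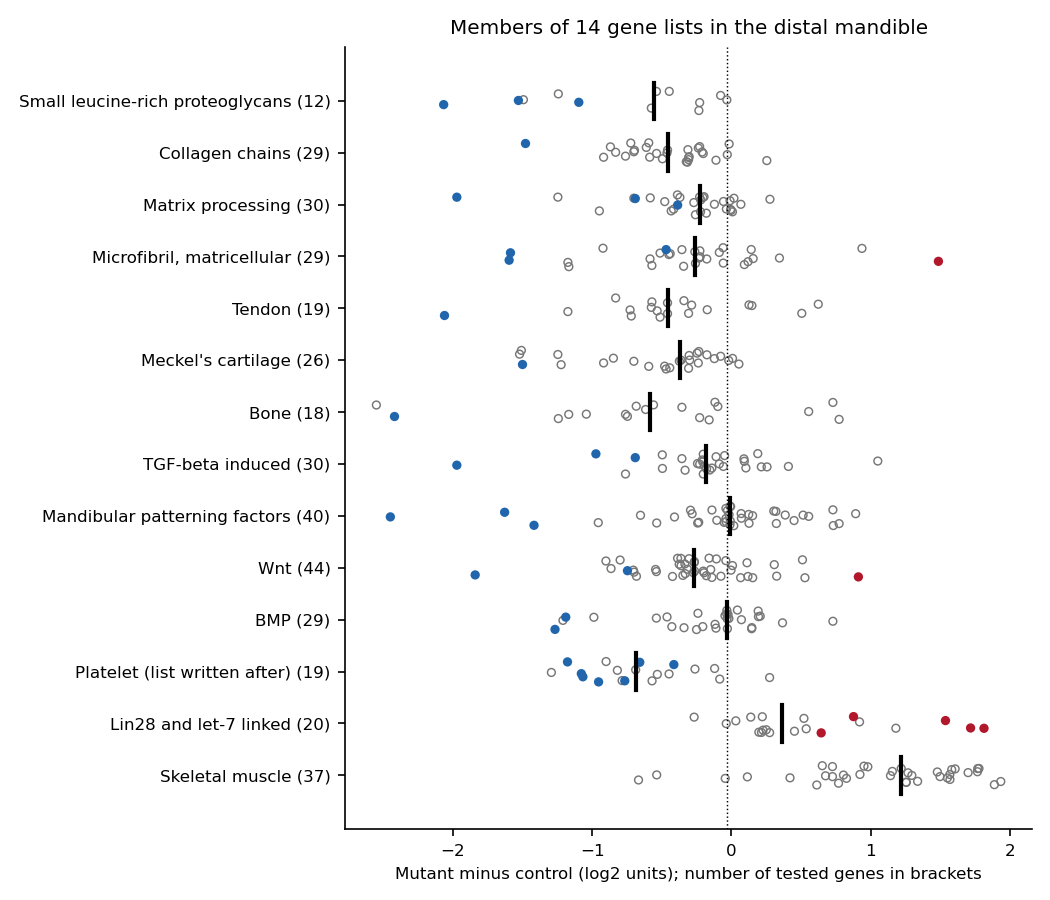
Mutant minus control differences (log2 units, x axis) of every tested member of 14 gene lists, 1 point a gene, filled where limma's adjusted p was under 0.05, with a vertical tick at each list's median and a dotted line at the median of all genes. The medians of proteoglycans (-0.56), collagens (-0.46) and platelet genes (-0.69) lie left of the dotted line, and those of Lin28 and let-7 linked genes (0.36) and skeletal muscle (1.22) lie to its right.

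Signals to neighbouring cells changed at a few ligands and antagonists. Bmp2, a bone morphogenetic protein, had 8.81, 9.53, 9.37 and 9.24 in mutants, against 10.47, 10.31, 10.71 and 10.21 in controls. Its groups did not overlap (-1.19 ± 0.19, limma adjusted p = 0.000987). Bmper, a secreted BMP-binding protein, fell by 1.27 (limma adjusted p = 0.00609). The other 27 of 29 BMP genes did not pass, beside 1.43% of all genes that fell. Among 44 Wnt genes, Rspo2, a secreted enhancer of Wnt signalling that the limb and face require, rose (12.28, 12.50, 12.33 and 12.44 in mutants, 10.84, 11.69, 11.83 and 11.53 in controls, 0.91 ± 0.22, limma adjusted p = 0.028). Control array 1 was the lowest for Rspo2, which lost its call without that array and without any 1 mutant array. The other Rspo2 probe set differed by 0.10. Sfrp4, a secreted Wnt antagonist, fell by 1.84 (limma adjusted p = 0.00307) and the ligand Wnt9a by 0.75 (limma adjusted p = 0.00338). Sfrp4 control array 1 stood alone at 11.88, with the other controls at 9.64, 9.58 and 9.94 and the mutants at 8.87, 8.13, 7.81 and 8.86. Ptgfr, the receptor of prostaglandin F2α, was 4.86-fold lower (limma adjusted p = 0.00394), and its 3 probe sets fell by 2.28, 2.54 and 1.75. It was the 1 gene to fall among 15 of prostaglandin synthesis and signalling, beside 1.43% of all genes.

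Hedgehog, FGF, IGF and retinoic acid genes gave no call. The counts below stand beside 2193 of all 13705 genes at an unadjusted limma p under 0.05. Of 17 hedgehog genes, limma passed 0, and 0 had an unadjusted p under 0.05. The counts were 0 of 25 FGF genes with 6 at an unadjusted p under 0.05, 0 of 15 IGF genes with 1, and 0 of 16 retinoic acid genes with 8. Within the last list the retinoic acid binding protein genes Crabp1 and Crabp2 lay higher by 0.43 and 0.33 without overlap between groups and without passing.

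A few genes of neurite guidance and synaptic adhesion fell. Of 45 guidance genes, the netrin receptor Unc5d (-1.45 ± 0.24, limma adjusted p = 0.00136) and the ephrin receptor Ephb3 (-0.47 ± 0.09, limma adjusted p = 0.00394) fell and 43 did not pass. Over all genes 1.43% fell. Lrrtm1, a synaptic adhesion protein, had 7.56, 7.97, 7.90 and 7.87 in mutants, against 9.75, 9.12, 10.42 and 9.50 in controls (-1.87 ± 0.30, limma adjusted p = 0.00088). Lrrtm3 (-1.17) and the contactins Cntn4 (-1.58) and Cntn6 (-2.02) fell as well, all 3 with every mutant array in the dim range. Cntn4 passed in 4 and Cntn6 in 2 of the 8 fits without 1 array. This set was put together after its values had been seen. Stmn2, a tubulin-binding protein of growing neurites, had 7.94, 9.06, 8.83 and 9.33 in mutants, against 11.73, 11.25, 10.79 and 11.34 in controls (-2.49 ± 0.44, limma adjusted p = 0.00245). Stmn2 was the 1 gene of 21 neuron markers to fall, and others of that list did not pass: Gap43 differed by -0.12, Uchl1 by -0.23 and Isl1 by -0.01. Syn3, a synapsin, fell by 1.70 (limma adjusted p = 3.44e-05) on the probe set that stood for it, while its other 2 probe sets differed by 0.02 and -0.45.

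Several of the genes that rose are linked to Lin28 and let-7. Lin28 proteins block let-7 microRNAs, which repress a set of genes of early embryonic cells. The list of such genes, like the others here, was chosen with earlier results of these data known, so its count is a description. Of 20 tested genes of this kind 5 rose, beside 0.482% of all genes, 18 had differences above 0, and the median was 0.36 against -0.03 over all genes. Leaving out 1 array at a time gave 3 to 6 of them, and 3 without mutant array 2, 3 or 4 or control array 1. Without the arrays numbered 1 and control array 3, 4 of them rose. Igdcc3, an immunoglobulin-family receptor, had 9.90, 10.37, 10.62 and 10.31 in mutants, against 8.04, 8.44, 8.97 and 8.48 in controls. It was the gene with the largest rise, 3.52-fold (1.81 ± 0.30, limma adjusted p = 0.00147). Fign, the microtubule-severing protein fidgetin, had 10.35, 10.74, 10.66 and 10.51 in mutants, against 8.68, 9.39, 8.38 and 8.93 in controls (1.72 ± 0.25, limma adjusted p = 0.000346). Trim71, an RNA-binding protein of early embryos, had 8.39, 8.65, 8.53 and 8.87 in mutants, against 6.89, 7.37, 6.87 and 7.16 in controls (1.54 ± 0.28, limma adjusted p = 0.00245). None of these 3 had an overlap between groups. Mycn rose by 0.88 (limma adjusted p = 0.0186), with a second probe set at 1.22 and the last at -0.02, and Igf2bp1, an RNA-binding protein, by 0.65 (limma adjusted p = 0.0366). Hmga2 (0.20), Tut4 (0.25) and Igf2bp3 (0.22) did not pass, although Tut4 and Igf2bp3 did not overlap between groups. Lin28a was in the dim range on all 8 arrays, at 5.09, 5.18, 5.51 and 5.40 in mutants and 4.93, 5.21, 5.15 and 4.80 in controls.

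The other large rises came from varied genes. Crym, a thyroid hormone binding protein, rose 3.28-fold and Cited1, a transcriptional coactivator, 3.23-fold (limma adjusted p = 0.033 and 0.0491). Crym passed in 1 and Cited1 in 2 of the 8 fits without 1 array, and their controls were spread: Cited1 had 11.35, 10.88, 11.31 and 11.73 in mutants, against 8.13, 10.01, 10.03 and 10.34 in controls. Dgkk, a diacylglycerol kinase, had 9.41, 8.95, 9.15 and 9.03 in mutants, against 7.42, 7.56, 8.35 and 7.17 in controls (1.51 ± 0.28, limma adjusted p = 0.00269). Mogat2, an enzyme of triglyceride synthesis, had 9.82, 10.22, 9.88 and 9.90 in mutants, against 7.98, 8.57, 8.87 and 8.59 in controls (1.45 ± 0.21, limma adjusted p = 0.000346). Both were clear of overlap and passed in all 25 other settings. Car14, a carbonic anhydrase, rose by 1.51, Trpm1, a cation channel, by 1.17, and Eno3, the enolase of muscle, by 1.04.

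A pair of imprinted genes of the Peg3 domain rose together. Usp29, named as a ubiquitin protease, had 8.74, 8.40, 8.51 and 8.54 in mutants, against 7.88, 7.73, 6.72 and 7.54 in controls (1.08 ± 0.19, limma adjusted p = 0.00245). Zim1, a zinc-finger gene of the same domain, had 7.98, 7.98, 7.80 and 7.84 in mutants, against 7.62, 7.23, 6.26 and 6.70 in controls (0.95 ± 0.23, limma adjusted p = 0.0305). Zim1 passed in 2 of the 8 fits without 1 array. Control array 3, the array with the steep 3′ to 5′ gradient, was the lowest in both, and Peg3 itself differed by 0.16. The 3 genes were set side by side after their values had been seen.

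Cell cycle and glycolysis genes lay slightly higher as groups, with few calls. Of 32 cell cycle genes 28 had differences above 0, with a median of 0.13, but the 1 gene that passed was Cdkn2c, an inhibitor of the G1 kinases Cdk4 and Cdk6, which fell (9.99, 9.98, 9.76 and 9.97 in mutants, 10.98, 10.61, 10.70 and 10.65 in controls, -0.81 ± 0.14, limma adjusted p = 0.00232). Mki67 differed by 0.11 and Pcna by 0.25, both short of the threshold. Of 25 glycolysis and hypoxia genes, hexokinase 2 (Hk2) and lactate dehydrogenase A (Ldha) rose, by 0.50 and 0.31 (limma adjusted p = 0.0334 and 0.0428), and the other 23 did not pass, beside 0.482% of all genes that rose, with a list median of 0.21. Hk2 passed in 2 and Ldha in 1 of the 8 fits without 1 array. Without control array 1 limma passed 0 of the 25, with 9 at an unadjusted p under 0.05.

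Markers of other cell types were read in the same fit. In whole tissue, fewer cells of a type and less RNA per cell cannot be told apart. Skeletal muscle genes had the largest median difference of the 32 lists: 34 of 37 lay above 0 with a median of 1.22, but limma passed 0 of them, with 20 at an unadjusted p under 0.05. Their mean level was 9.62, 8.47, 9.35 and 9.11 in mutants, against 8.82, 7.98, 8.21 and 7.27 in controls, so the lowest mutant array lay below the highest control array. Myog, the myogenic factor of differentiating muscle, had 11.61, 10.08, 11.16 and 10.97 in mutants and 9.97, 9.42, 9.87 and 8.23 in controls (1.58 ± 0.81, limma adjusted p = 0.341). The muscle regulators Pax3 (-0.54) and Mef2c (-0.67) lay the other way. Eno3, named among the rises, is itself a muscle gene, and the part of muscle content in its rise was not tested.

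Some platelet and megakaryocyte genes fell. Of 19 tested, 7 fell (Pf4, Itga2b, Itgb3, Clec1b, Fermt3, Nfe2 and Srgn), beside 1.43% of all genes, and the median was -0.69. That list was written after Pf4 and Itga2b had been seen among the calls, so its count is a description. Pf4, the platelet chemokine, had 8.91, 8.84, 9.28 and 9.40 in mutants, against 10.23, 9.87, 10.93 and 10.10 in controls (-1.18 ± 0.21, limma adjusted p = 0.00246). Itga2b, the platelet integrin chain, had 8.50, 8.70, 8.74 and 8.80 in mutants, against 9.16, 9.04, 9.27 and 8.93 in controls (-0.41 ± 0.09, limma adjusted p = 0.00877). The list mean was highest on control array 3 (8.47) and control array 1 (8.21). Leaving out 1 array at a time gave 5 to 9 calls. In a fit without the arrays numbered 1 and control array 3, 1 of the 19 fell and the median was -0.40. Of 26 macrophage and leukocyte genes, Pf4 and Ptprc, the common leukocyte antigen, fell, and 24 did not pass, beside 1.43% of all genes. Csf1r and Ctss, markers of macrophages, differed by -0.24 and 0.02.

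Vessels, red cells, Schwann cells, pigment cells, epithelium and mesenchyme gave no call by limma. Among all 13705 genes, 2193 had an unadjusted limma p under 0.05. The counts at an unadjusted p under 0.05 were 2 of 18 for endothelium, 3 of 9 for erythroid cells, 2 of 10 for Schwann cells, 1 of 5 for pigment cells, 1 of 22 for epithelium and 2 of 12 for mesenchyme. Mesenchyme markers Prrx1 (-0.01) and Vim (-0.12) and the epithelial keratin Krt14 (-0.15) stayed short of the threshold. Other mesenchyme markers differed more, without overlap between groups and without passing. Col1a1 (-0.76) and Twist2 (-0.62) lay lower, and Dlx5 (0.56) and Prrx2 (0.39) lay higher.

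The distal mandible effect was last set against the mean genotype effect in the other 3 regions, in the same limma fit. Of 13705 genes, 11 differed (0.0803%), all with the effect of the distal mandible below that of the other regions. Emx2 passed in all 23 other settings that allowed this test, E330013P04Rik in 20 of 22, and the other 9 genes in 9 to 16 of them. The count itself fell to 2 without control array 1 and to 2, 4 and 2 without mutant arrays 2, 3 and 4. It was 3 without mutant array 1 and 5 without control array 3. The fit takes the arrays of different regions as independent. Xist, however, was high on mutant number 1 and control number 2 in each of the 4 regions. Control number 3 had Xist at 6.70 and 6.84 in the distal and proximal mandible, but at 9.69 and 10.72 in the distal and proximal maxilla. The labels do not say whether arrays of 1 number share an embryo. With genotype and number as a random block 39 genes passed, all 11 among them. In the upward direction limma passed 0 genes, with 226 at an unadjusted p under 0.05, against 582 downward. Emx2 had the largest difference, -2.90 ± 0.34 (limma adjusted p = 4.54e-05). Its genotype effect was -2.45 in the distal mandible, 0.90 in the proximal mandible, -0.17 in the distal maxilla and 0.63 in the proximal maxilla. E330013P04Rik followed this pattern with -1.20, 0.76, -0.05 and 0.62 (difference -1.64 ± 0.23, limma adjusted p = 0.000664), and so did Emx2os with -0.88, 0.58, 0.23 and 0.71 (limma adjusted p = 0.029). In the proximal mandible, where 172 genes passed (1.26%), E330013P04Rik passed as a rise of its own (limma adjusted p = 0.0475). The differences of Pou3f3 and Pantr1 from the other regions, -1.38 and -2.06, did not pass (limma adjusted p = 0.157 and 0.0793).

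**Figure D5:**
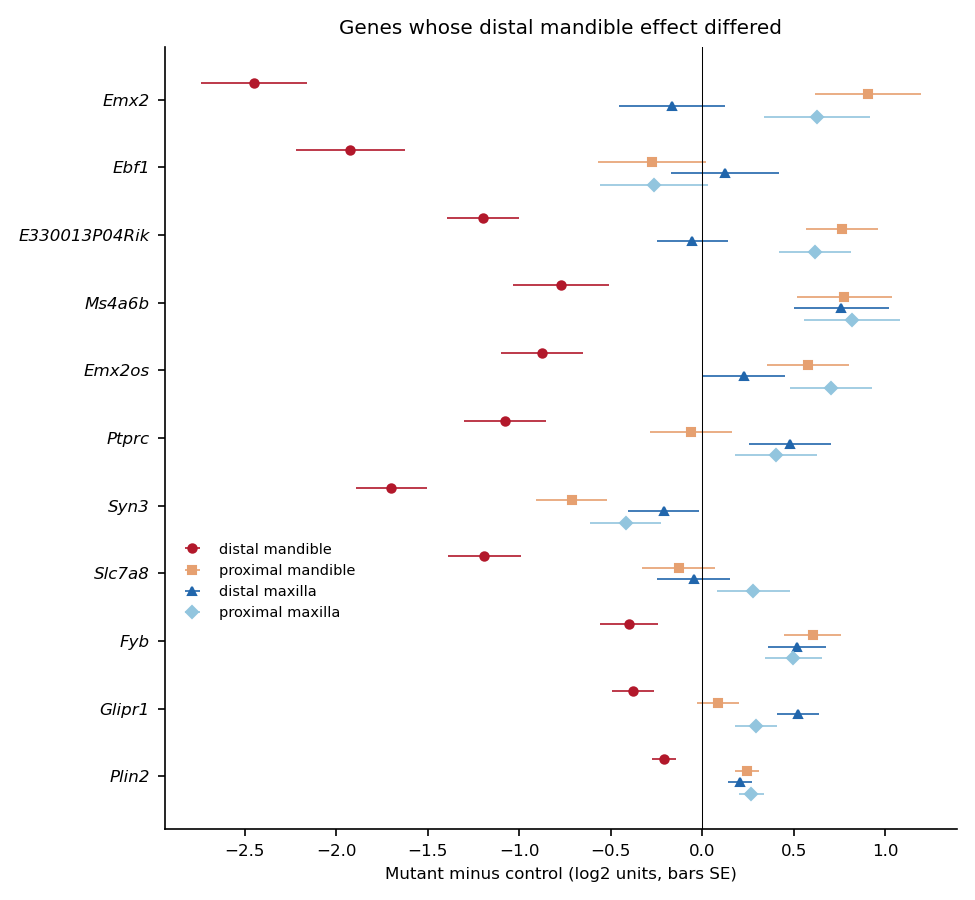
Mutant minus control differences (log2 units, x axis, bars are SE of the limma fit, 4 mutant and 4 control arrays a region) of the 11 genes whose distal mandible effect differed from the mean of the other 3 regions. The distal mandible points lie left of the other 3 for each gene.

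The remaining genes of this group were of mixed kinds. Ebf1 had a genotype effect of -1.92 in the distal mandible and -0.28, 0.12 and -0.26 in the proximal mandible, distal maxilla and proximal maxilla (difference -1.78, limma adjusted p = 0.029). Syn3 had -1.70 against -0.71, -0.21 and -0.42, and Slc7a8, an amino acid transporter, -1.19 against -0.13, -0.05 and 0.28. Leukocyte genes were also among them: Ptprc had -1.08 against -0.06, 0.48 and 0.40, Ms4a6b -0.77 against 0.78, 0.76 and 0.82, and Fyb, an adaptor of immune and platelet signalling, -0.40 against 0.60, 0.52 and 0.50. For Ms4a6b and Fyb the distal mandible effect did not pass by itself (limma adjusted p = 0.13 and 0.191), and the difference came with values above 0 elsewhere. The median of the macrophage list was -0.24 in the distal mandible (-0.08 without control array 1) and 0.68, 0.65 and 0.75 in the proximal mandible, distal maxilla and proximal maxilla. Plin2, a lipid droplet protein, had -0.21 against 0.24, 0.21 and 0.27, and Glipr1 -0.38 against 0.08, 0.52 and 0.30. Of these 11 genes, 7 were also among the 262 called in the distal mandible itself.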

How the data were processed

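Biotin-labelled cRNA from distal mandible tissue was measured on Affymetrix mouse arrays. The deposited log2 values, 1 per probe set and array, were made with RMA per the submitters' processing notes, which give no version there. RMA corrects background, brings all arrays to 1 distribution and summarises probes by median polish, so a shift common to most genes would be removed and dim probe sets have compressed differences. Each array was grouped by its title.

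The platform annotation gave a single symbol for 34945 of 45101 probe sets, several for 932 and none for 9160, and 64 were controls. Entrez identifiers matched 34741 to RefSeq (GRCm38.p6). Probe sets above percentile 40 of their array on at least 4 of the 32 arrays were kept (24998), and each gene was read from its brightest probe set on average over the 32 arrays, giving 13705 genes, of which 6533 had more than 1. Probe sets with several symbols or none were left out.

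Means of the 8 groups were fitted over the 32 arrays in limma 3.58.1 (R 4.3.3), which gave the genotype effect in the distal mandible and its difference from the mean effect of the other 3 regions, with 24 residual degrees of freedom, eBayes and the Benjamini-Hochberg adjustment (threshold 0.05). On simulated data with 200 changed genes among 13705, the fit recovered 82% of genes raised by 1 log2 unit and 92% of those lowered by 1. Of 197 calls there, 13 were false. The simulated noise was independent between genes and arrays, with no effect of array number and no array with a steep 3′ to 5′ gradient. These rates therefore check the code and do not give the recovery in the real arrays. The number of arrays limits the precision, and no 2 arrays held identical values.

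The genes, lists and comparisons were chosen with earlier results of these data known. The rule for naming took Tgfbr1, the 20 largest called changes in each direction, the 8 largest differences from the other regions in each direction, and for each list described up to 8 called members and 3 others of highest mean level, with paralogs and neighbours of a named gene. Genes called in every setting and the platelet, nuclear factor I, Peg3 and adhesion sets, and Smad7, Tgfbr2, Ltbp3, Ltbp1, Lin28a, Plin2, Glipr1 and Fyb, were picked after their values were seen. So were Barx1, Dlx5, Dlx6, Msx2, Pitx1, Col1a1, Acta2, Tpm1, Tagln, Twist2 and Prrx2. Whether equal array numbers pair mutant and control was checked by the correlation of their deviations from the group means, 0.393, 0.179, 0.006 and 0.267 for numbers 1 to 4; the numbers were not taken as pairs. Other filters, normalizations, probe set choices, blocks and left-out arrays were tried as alternatives.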

Additional observations from a re-analysis of the deposited data

Results flagged for a closer look

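In 129 of the named genes, 17 of 258 groups of 4 distal mandible arrays held 1 array far from the other 3, with a gap to the nearest above 0.829 of the range, where chance gives about 1 group in 20. On mutant array 1, Mycn (11.71), Nfatc1 (9.08) and Pcna (13.71) were low and Xist (13.90) was high. On mutant array 2, Fyb (7.20) and Glipr1 (6.20) were low, and on mutant array 3 Cdkn2c was low (9.76). On control array 1, Ebf1 (11.61), Sfrp4 (11.88), Camk1d (9.35) and Ltbp1 (11.70) were high, and Cited1 (8.13), Chodl (9.41) and H2az2 (13.54) were low. Xist was high on control array 2 (13.91). Prrx1 (13.35) and Vim (13.22) were low on control array 3, the array with the steep Gapdh gradient from the 3′ to the 5′ end. The part of sex, of control array 1 or of that gradient in single genes was not tested beyond the fits that leave these arrays out.

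The distal mandible effect differed from the mean effect of the other 3 regions by limma in 11 genes, always downward. The differences were -2.90 for Emx2, -1.78 for Ebf1, -1.64 for E330013P04Rik, -1.55 for Ms4a6b, -1.38 for Emx2os and -1.35 for Ptprc. They were -1.25 for Syn3, -1.22 for Slc7a8, -0.94 for Fyb, -0.68 for Glipr1 and -0.45 for Plin2.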

How the results depend on the processing

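Of 25 other settings, none turned the direction of any of the 81 called genes described by name. The number of genes called in the distal mandible (262, 25.2% of them higher in the mutant) stayed within 1.5 times under another filter, another normalization, a mean of probe sets, a variance trend and a random block (226 to 292). It was 729 with the replicate block and 782 with number 1 as a batch term, and both held all 262 genes. Array weights gave 2641, of which 46.6% were higher. Leaving out the arrays of 1 number gave 33 to 351 (33 without number 3, 88 without number 2, 90 without number 4), and leaving out 1 distal mandible array gave 123 to 329. A fit without number 1 and control array 3, chosen after seeing the data, gave 171, of which 35.7% were higher and 109 were among the 262. Only the 8 distal mandible arrays gave 256 calls, 137 of them shared.

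For the difference from the other 3 regions (11 genes), the count was 23 with the replicate block, 25 with number 1 as a batch term, 39 with genotype and number as a random block, 578 with array weights and 6 without number 1 and control array 3. Leaving out arrays of 1 number gave 1 to 25, and leaving out 1 array gave 2 to 16. The fit on 8 arrays cannot give this difference. The causes were not tested.

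The array numbers were not shown to pair mutant and control, since the arrays of number 3 had a correlation of 0.006. The replicate block raised the counts to 729 and 23 as given above, and over the 8 arrays alone to 328. Over the genes chosen by the naming rule and all alternatives, 3579 values kept their direction and side of the threshold, 60 came newly past it and 454 were no longer past it in the same direction, and 94 turned direction. Tgfbr1 passed in 8 of 25 settings, with adjusted p-values up to 0.406. Signals near the dim range limit what can be said of low genes such as Tnfsf11 and Lin28a.

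The 94 turned values belonged to 25 genes, 0 of which had passed in limma, and the largest of their differences was 0.24 in size. With the mean of probe sets the turned values were Smad3 0.26, Fn1 0.12, Traf6 0.059, Prrx1 0.10, Hand2 0.12, Tbx3 0.036, Gli2 -0.045, Grb10 0.36, Igfbp4 0.16, Efnb2 0.30, Epha3 0.15, Ccnd2 -0.025 and Isl1 0.025. Without number 1 and control array 3 the turned values were Csf1r 0.11, Ctsk 0.17, C1qb 0.037, Ramp2 0.12, Isl1 0.10 and Erbb3 0.033. With array weights the turned values were Ctsk 0.060, Igfbp4 0.0027, C1qb 0.043, Ramp2 0.073, Plvap -0.031, Hba-x 2.63e-05, Isl1 0.085, Erbb3 0.057 and Krt14 0.0033. With arrays centred on the median the turned values were Gli2 -0.015 and Ctss -0.0012. With repeated quantile normalization the turned values were Isl1 0.0065. Leaving out 1 array or the arrays of 1 number, the differences ran from -0.21 to 0.024 for Mfap2, from -0.15 to 0.0076 for Fn1, from -0.23 to 0.15 for Ctsk, from -0.10 to 0.028 for Traf6, from -0.091 to 0.055 for Prrx1, from -0.086 to 0.066 for Hand2, from -0.019 to 0.18 for Foxp1, from -0.15 to 0.016 for Tbx3, from -0.052 to 0.079 for Gli2, from -0.20 to 0.20 for Ctss, from -0.20 to 0.15 for C1qb, from -0.11 to 0.23 for Sox18, from -0.12 to 0.071 for Ramp2, from -0.063 to 0.17 for Plvap, from -0.17 to 0.10 for Isl1, from -0.21 to 0.069 for Erbb3 and from -0.25 to 0.020 for Krt14.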

Other observations

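Further genes with large changes belonged to no list above. Grik3, a kainate-type glutamate receptor subunit, had 5.91, 5.12, 5.23 and 5.29 in mutants, all in the dim range, against 8.63, 7.08, 7.83 and 7.23 in controls (-2.31 ± 0.61, limma adjusted p = 0.0468, n = 4 each). Chodl, a transmembrane lectin, had 8.80, 8.72, 7.98 and 7.76 in mutants, against 9.41, 10.57, 10.78 and 10.57 in controls (-2.01 ± 0.36, limma adjusted p = 0.00245). Neither gene had an overlap between groups. The kinase genes Dclk3 and Camk1d fell by 1.82 and 1.69 on the log2 scale (limma adjusted p = 0.000346 and 0.00245), and the zinc-finger factor Glis3 fell by 1.86 (limma adjusted p = 0.0235).

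Gsn, the actin-severing protein gelsolin, had 11.26, 11.32, 11.26 and 11.27 in mutants, against 12.49, 12.17, 11.81 and 11.91 in controls (-0.82 ± 0.14, limma adjusted p = 0.00235). H2az2, a histone variant gene, had 13.25, 13.18, 13.24 and 13.23 in mutants, against 13.54, 13.76, 13.80 and 13.80 in controls, and fell by 0.50 (limma adjusted p = 0.000346). Dtx1, a ubiquitin ligase known from Notch signalling, fell by 1.21 (limma adjusted p = 0.000346). The mutant arrays of these 3 genes lay close together, below every control array. Among the rises, Syt17, a synaptotagmin, rose by 1.02 and Dusp9, a phosphatase of MAP kinases, by 0.86 (limma adjusted p = 0.00923 and 0.0237).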
